A study of Rattus norvegicus with 4 samples.

Results

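A high-fat diet in control rat offspring was examined in the liver by setting a high-fat-fed control sample against a control sample on standard diet, gene by gene. The genes are those with a deposited detection p-value under 0.05 on at least 1 of the 2 samples, which held for 9479 of the 21479 genes on the array. The groups used are liver from high-fat-fed control rats, liver from control rats, and, set beside them, liver from high-fat-fed and from standard-fed FR30 rats, the label the study gives to prenatally undernourished offspring. All were male Wistar rats aged 4 months, and each group was deposited as 1 sample. The sources used here do not say whether a sample came from 1 animal or a pool, what the high-fat diet contained or how long it was fed. With 1 sample in each group there is no replicate check and no test, so diet cannot be told apart from any other difference between the animals or preparations behind 2 samples. Fewer cells of a type and less RNA per cell cannot be told apart in such bulk RNA.

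The liver answers a fatty meal on several fronts. Hepatocytes take up and burn fatty acids, package them into lipoproteins, and turn cholesterol into bile acids through the pathway that CYP7A1 opens. When sterols and unsaturated fats arrive with the food, the SREBP transcription factors that drive cholesterol and fatty acid synthesis are restrained, and a change in carbohydrate supply alters the enzymes of glycolysis and gluconeogenesis. Hormone signals from insulin, glucocorticoids and growth hormone, and the oxidative load sensed by NRF2, act on the same cells.

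The tissue label was checked against 10 hepatocyte genes that could be compared, all of which were detected on both samples and none of which differed by 1.5-fold (median log2 difference -0.07). Albumin (Alb) read 42127 in the high-fat sample, against 45364 in the standard sample. The samples were alike in general level, with a median signal of 170.8 in the high-fat sample and 170.5 in the standard sample, and 8996 and 9220 detected genes. Signals are intensities in arbitrary units that keep a background near 150, so a ratio of low signals understates the difference, and the level of one gene's probe is not set against that of another. In the FR30 standard sample 114 detected genes had a standard deviation (STDEV) over 20% of their signal, against 0 in the FR30 high-fat sample, 0 in the control high-fat sample and 1 in the control standard sample. The FR30 standard sample also stood apart in fat cell markers. The 10 adipocyte markers in the table summed to 3404 in the FR30 high-fat sample, against 9975 in the FR30 standard sample. Their sums in control liver were 3476 on high-fat diet and 2799 on standard diet. Of 8 compared in the FR30 pair, 6 were at least 1.5-fold lower in the FR30 high-fat sample. Fabp4, a lipid chaperone abundant in fat cells, read 247 in the FR30 high-fat sample, against 3020 in the FR30 standard sample, where its STDEV of 4928 exceeded the value. It read 245 in the control high-fat sample, against 247 in the control standard sample. The part of these markers in the FR30 differences was not tested.

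Most genes had nearly the same signal in both samples. Among the 9466 genes with a value, the quartiles of the log2 difference were -0.09 and 0.10, and the median was 0.0043. A difference of at least 1.5-fold was found for 111 genes that were higher in the high-fat sample (1.17% of genes) and 136 that were lower (1.44%), together 2.61% of genes. Over all genes 51.3% lay above a difference of 0. The list counts given below for the control pair as deposited are to be read beside these shares. After background correction and quantile normalization in 1 joint step, called correction from here on, the same limit took in 248 higher genes (2.62%) and 322 lower ones (3.4%), together 6.02%, with 110 of the 111 and 135 of the 136 among them. Of these, 29 higher and 40 lower genes were detected on 1 sample only, where a corrected ratio depends on the fitted background. At 2-fold, 28 genes were higher and 31 lower, and at 4-fold 3 genes were higher and 3 lower. The share past 1.5-fold was 0.468% among 3636 genes with a mean signal under 300, and 4.92% among 1159 genes above 3000. All 247 of these genes differed by more than 2 of the STDEVs deposited with them, as did 2654 genes in all, but a STDEV within 1 sample says nothing of the spread between animals. The median STDEV of their log2 difference was 0.0633 among the higher genes, with a largest value of 0.2131, and 0.064 among the lower ones, with a largest value of 0.1908. Just inside the limit of 1.5-fold stood Bdh2, at 614 in the high-fat sample, against 408 in the standard sample, and just outside it Minpp1, at 2029.8 in the high-fat sample, against 1353 in the standard sample. Just inside the detection limit was Tspoap1, at 179 in the high-fat sample, against 181 in the standard sample, and just outside it Acsm4, at 182.2 in the high-fat sample, against 180.3 in the standard sample.

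Among lipid genes, the entry enzyme of bile acid synthesis was higher, while several enzymes of sterol and fatty acid synthesis were lower. Cyp7a1, whose enzyme starts the main route from cholesterol to bile acids, read 4428 (STDEV 52.2) in the high-fat sample, against 1159 (STDEV 49.9) in the standard sample, which is 3.82-fold higher. In FR30 liver it read 3708 in the FR30 high-fat sample, against 766 in the FR30 standard sample, so both high-fat samples lay above both standard samples. Cyp8b1, which makes the 12-hydroxylated bile acids, read 26966 in the high-fat sample, against 16385 in the standard sample (1.65-fold higher). Nr0b2, the nuclear receptor SHP that holds bile acid synthesis down, was also higher, at 869 in the high-fat sample, against 397 in the standard sample (2.19-fold higher). These 3 were the only ones past 1.5-fold among 17 compared genes of bile acid synthesis and its regulation, whose median log2 difference was 0.12, and none of 8 bile acid transporters passed it. The sodium-taurocholate uptake carrier Slc10a1 read 22651 in the high-fat sample, against 23464 in the standard sample.

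Cholesterol synthesis leaned lower. Of 18 compared genes, 16 lay below a difference of 0, 5 were at least 1.5-fold lower and 0 were higher, and after correction 9 were lower. The median log2 difference of the 18 was -0.30 as deposited. Hmgcs1, which makes the HMG-CoA that enters the pathway, read 10585 in the high-fat sample, against 16476 in the standard sample (1.56-fold lower). Fdft1, the squalene synthase, read 724 in the high-fat sample, against 1203 in the standard sample (1.66-fold lower). Tm7sf2, a sterol C14-reductase, read 416 in the high-fat sample, against 862 in the standard sample (2.07-fold lower). Dhcr7, which carries out a final reduction step to cholesterol, read 1003 in the high-fat sample, against 1857 in the standard sample (1.85-fold lower). Hmgcs1 and Tm7sf2 were also at least 1.5-fold lower in the FR30 pair. Fdft1 read 1277 in the FR30 high-fat sample, against 1208 in the FR30 standard sample, and Dhcr7 read 1669 in the FR30 high-fat sample, against 2192 in the FR30 standard sample, a difference of -0.39 on the log2 scale.

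Promoters of 2 of these genes are printed because cholesterol genes are known to pair SREBP sites with binding sites of NF-Y, which reads the letters CCAAT. Each line gives 300 bases, from 250 before to 50 after the start of the gene in RefSeq on assembly GRCr8, 5′ to 3′ on the gene's strand. Capitals mark CCAAT on either strand, here always in its reverse form. Tm7sf2 lies at chr1:212789492-212789791 on the minus strand and Hmgcs1 at chr2:53382054-53382353 on the plus strand.
Tm7sf2: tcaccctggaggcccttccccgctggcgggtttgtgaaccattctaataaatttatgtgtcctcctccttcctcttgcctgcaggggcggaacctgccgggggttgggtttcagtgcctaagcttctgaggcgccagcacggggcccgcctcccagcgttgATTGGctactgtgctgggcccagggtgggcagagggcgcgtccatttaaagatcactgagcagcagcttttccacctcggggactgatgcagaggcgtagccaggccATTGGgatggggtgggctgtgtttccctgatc
Hmgcs1: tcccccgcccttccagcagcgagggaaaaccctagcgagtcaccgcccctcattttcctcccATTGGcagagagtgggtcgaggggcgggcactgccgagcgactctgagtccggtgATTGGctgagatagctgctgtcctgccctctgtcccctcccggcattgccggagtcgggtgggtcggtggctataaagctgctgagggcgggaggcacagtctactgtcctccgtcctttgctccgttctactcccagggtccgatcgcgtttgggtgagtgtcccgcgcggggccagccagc
Both windows held 2 matches that did not overlap. Of the 18 compared cholesterol genes, 13 had a listed promoter, and 10 of these held CCAAT, 9 of them at least 2 copies. Of all 33469 promoters listed, 37.5% held CCAAT and 11.2% held at least 2, and among 6778 promoters of genes compared here the shares were 38.0% and 13.4%. The letters TCACNCCAC, a form of the sterol element, were in 0 of the 13 windows and in 1.12% of all promoters. A match of letters is a description of the window and shows no binding.

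Sterol uptake and efflux showed a single gene past the limit among 18. Abcg5, a subunit of the canalicular pump that exports sterols into bile, read 2113 in the high-fat sample, against 1008 in the standard sample (2.096-fold higher). In FR30 liver it was 1772 in the FR30 high-fat sample, against 1629 in the FR30 standard sample, so the control standard sample was the one that stood apart, below the other 3. Srebf1, the SREBP gene that governs fatty acid synthesis, read 3018 in the high-fat sample, against 4447 in the standard sample, a log2 difference of -0.56 that stayed just short of 1.5-fold. It went the other way in the FR30 pair, at 4309.6 in the FR30 high-fat sample, against 2872 in the FR30 standard sample.

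Among 14 compared genes of fatty acid synthesis, desaturation and elongation, 12 lay below 0, 3 were at least 1.5-fold lower and 1 was higher. Scd (Scd1 in the file), the desaturase that makes oleate, had the widest gap of them, 6151 (STDEV 140.3) in the high-fat sample, against 27598 (STDEV 709) in the standard sample (4.49-fold lower). The FR30 pair showed it too, at 3718 in the FR30 high-fat sample, against 23229.5 in the FR30 standard sample, where its STDEV was wide, at 9852. The desaturase Fads1, which makes arachidonate, read 1819.8 in the high-fat sample, against 3095 in the standard sample (1.701-fold lower), while the FR30 samples read 4064 on high-fat and 4158 on standard diet. Elovl5, an elongase of polyunsaturated fatty acids, read 776 in the high-fat sample, against 1282 in the standard sample (1.65-fold lower). The exception was Thrsp, the lipogenic protein Spot 14, at 4953 in the high-fat sample, against 3117 in the standard sample (1.59-fold higher). In the FR30 pair Thrsp read 3785 in the FR30 high-fat sample, against 5257 in the FR30 standard sample, but the STDEV of the FR30 standard value was 5053, nearly as large as the value, and that sample is the one with a summed adipocyte marker signal of 9975.

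Fatty acid uptake stood out through 1 gene. Cd36, a membrane carrier of fatty acids, read 3320.5 in the high-fat sample, against 924 in the standard sample (3.59-fold higher). It was measured by 3 rows of the table, 2 for Cd36 and 1 for a gene model described as similar to it, and their log2 differences were between 1.81 and 1.88. In FR30 liver Cd36 read 3076 in the FR30 high-fat sample, against 2392 in the FR30 standard sample, where its STDEV was 898, and the control standard sample was alone at the low end. Adipocytes also express Cd36, and their markers were high in the FR30 standard sample, as given above. The median log2 difference of these markers in the control pair was 0.09 as deposited and 0.25 after correction, which left 2 of 6 higher and 0 lower. The part of fat cells in the Cd36 values of either pair was not tested. The lipid droplet protein Plin2 (Adfp in the file) read 17293 in the high-fat sample, against 16052 in the standard sample, and the fatty acid binding protein Fabp1 read 19802 in the high-fat sample, against 24035 in the standard sample. No other member of the 17 uptake and droplet genes passed 1.5-fold.

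Fatty acid burning showed little. None of 18 genes of mitochondrial fatty acid oxidation passed 1.5-fold, and 9 lay above and 9 below 0. Cpt1a, which admits long-chain fatty acids to mitochondria, read 8166 in the high-fat sample, against 6736 in the standard sample, a log2 difference of 0.28. Acadm, the medium-chain acyl-CoA dehydrogenase, read 25474 in the high-fat sample, against 26384 in the standard sample. Among 16 peroxisomal and microsomal genes 1 was lower, the thiolase Acaa1b (a model identifier in the file), at 304 in the high-fat sample, against 539.5 in the standard sample (1.77-fold lower). Among 6 ketogenesis genes 1 was higher, Bdh2, given above. The cytosolic thioesterase Acot1 read 543 in the high-fat sample, against 178 in the standard sample, where it was not detected, so it was at least 3.06-fold higher. The acyl-CoA synthetase Acsm2 was likewise detected only on high-fat diet, at 695 in the high-fat sample, against 180.3 in the standard sample (at least 3.86-fold higher). Both were higher in the FR30 pair too, Acot1 at 608 in the FR30 high-fat sample, against 186 in the FR30 standard sample, and Acsm2 at 453 in the FR30 high-fat sample, against 176 in the FR30 standard sample.

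**Figure D1:**
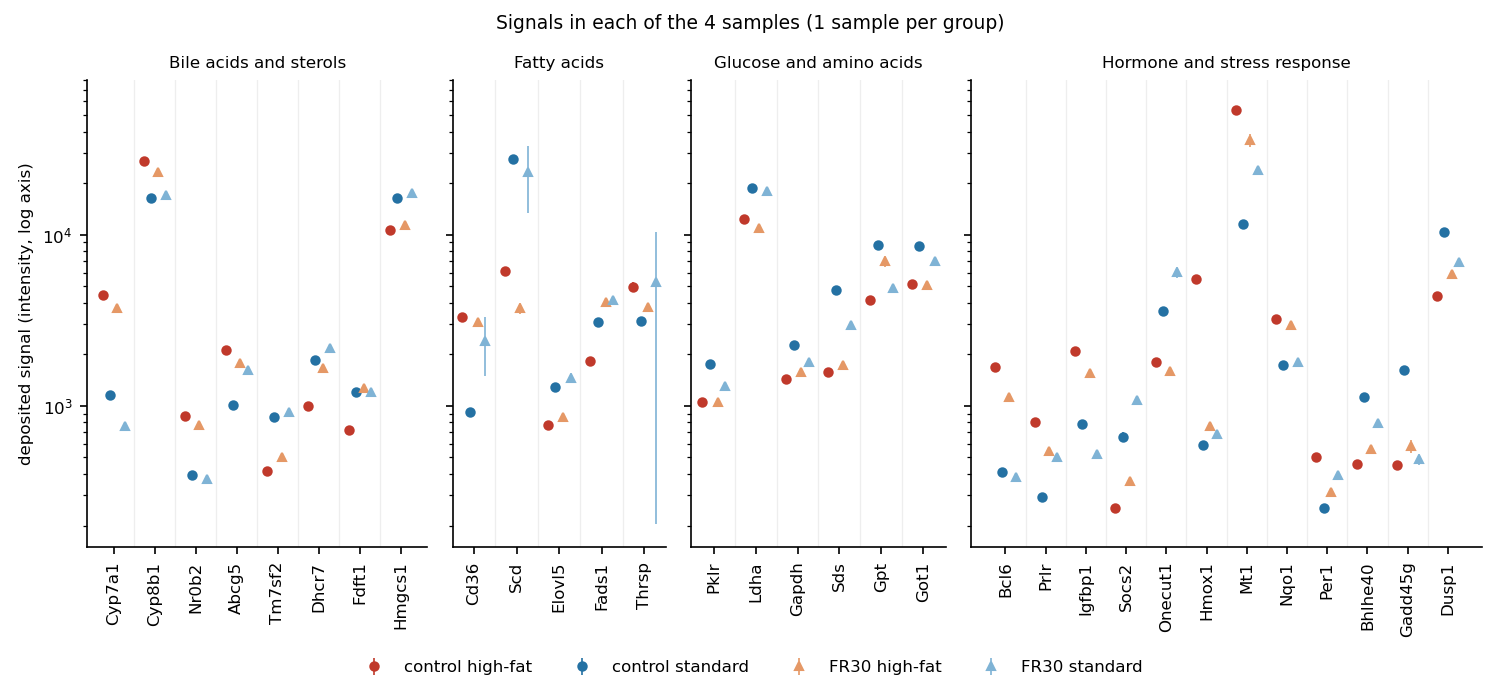
Deposited signal (vertical axes, log scale, arbitrary intensity units) of named genes in the control high-fat, control standard, FR30 high-fat and FR30 standard samples, from left to right, with bars for the deposited STDEV. Most bars are shorter than the symbols, and the FR30 standard bars of Thrsp, Scd and Cd36 are the long ones. Cyp7a1 lies higher and Scd lower in both high-fat samples, whereas Hmox1 stands out on control high-fat diet only, at 5520.3 against 588 on control standard diet.

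Carbohydrate and amino acid enzymes leaned lower. All 12 compared genes of gluconeogenesis lay below 0, with a median log2 difference of -0.36, and 3 of them were at least 1.5-fold lower. The alanine aminotransferase Gpt read 4156 in the high-fat sample, against 8693 in the standard sample (2.09-fold lower). Serine dehydratase, Sds, which feeds serine into glucose production, read 1587 in the high-fat sample, against 4782 in the standard sample (3.01-fold lower). The aspartate aminotransferase Got1 read 5140.1 in the high-fat sample, against 8574 in the standard sample (1.67-fold lower). The committed enzymes did not pass the limit. Pck1 read 38033 in the high-fat sample, against 48137 in the standard sample, and G6pc1 (G6pc in the file) read 9680.4 in the high-fat sample, against 10453 in the standard sample. In the FR30 pair Gpt was higher on high-fat diet, at 7013 in the FR30 high-fat sample, against 4911 in the FR30 standard sample, while Sds was lower, at 1732 in the FR30 high-fat sample, against 2972 in the FR30 standard sample. The 12 genes had a median log2 difference of -0.37 in the FR30 pair, where 4 were at least 1.5-fold lower and 0 higher.

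Of 24 genes of glycolysis and glycogen, 1 was higher and 4 were lower. The liver pyruvate kinase Pklr read 1057 in the high-fat sample, against 1746 in the standard sample (1.65-fold lower). Pgm1, which links glycogen to glycolysis, read 1229 in the high-fat sample, against 2178 in the standard sample (1.77-fold lower). Lactate dehydrogenase A, Ldha, read 12424 in the high-fat sample, against 18785 in the standard sample (1.51-fold lower). Of 4 rows described as lactate dehydrogenase A and detected on both samples, picked after their values were seen, 2 were at least 1.5-fold lower. Another of the 4, the model RGD1562690, read 48900.5 in the high-fat sample, against 55847 in the standard sample. Its log2 difference was -0.19, short of the limit. Gapdh, often used as a reference gene, was among the lower genes of the list, at 1436 in the high-fat sample, against 2258 in the standard sample (1.57-fold lower). Outside this list, the fructose carrier Slc2a5 read 493 in the high-fat sample, against 1049 in the standard sample (2.13-fold lower).

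The lower Gapdh signal recurred in rows for gene models described as similar to glyceraldehyde-3-phosphate dehydrogenase, a family picked out after its values were seen. Of 20 such genes detected on both samples, 16 were lower by at least 1.5-fold and 0 were higher. Their median log2 difference was -0.73. In the FR30 pair 19 of them had a value and 0 passed 1.5-fold, with a median of -0.07. Their summed signal was 40778 on high-fat diet, against 69075 on standard diet, in control liver. In FR30 liver it was 48450.4 on high-fat diet, against 52718 on standard diet. A like pattern was seen for the cytokine MIF, where 4 of 5 genes and models were lower (median -0.68) and the FR30 median was -0.12. Mif itself read 9331 in the high-fat sample, against 14314 in the standard sample (1.53-fold lower), and the FR30 samples read 8363 on high-fat and 9291 on standard diet. Probes of near-identical models may measure the same RNA, which was not examined, so these rows are not separate observations.

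**Figure D2:**
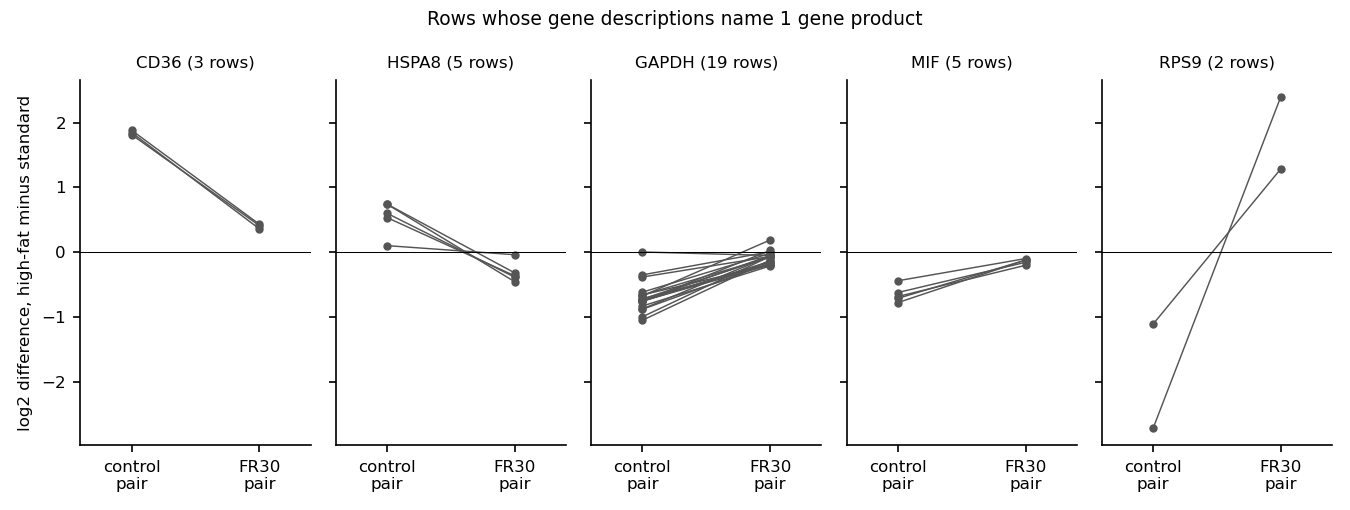
Log2 difference of high-fat minus standard (vertical axis) in the control pair and in the FR30 pair (horizontal axis), with 1 panel per gene product. Each line joins the values of 1 row whose description names that product, and rows without a value in the FR30 pair are not drawn. The GAPDH rows have a median of -0.73 in the control pair (20 rows) and -0.07 in the FR30 pair (19 rows), and the CD36 rows have medians of 1.85 and 0.41.

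Amino acid breakdown had 1 gene higher and 4 lower among 34. Oat, the ornithine aminotransferase of pericentral hepatocytes, read 13500.2 in the high-fat sample, against 8789.9 in the standard sample (1.54-fold higher). The lower ones were Gpt, Sds and Got1, given above, and Gldc, the glycine cleavage decarboxylase, at 867 in the high-fat sample, against 1374 in the standard sample (1.58-fold lower). Mat1a, which makes S-adenosylmethionine in adult liver, read 3284 in the high-fat sample, against 4938 in the standard sample (1.504-fold lower), and in the FR30 pair it read 5704 in the FR30 high-fat sample, against 4236 in the FR30 standard sample. None of 12 urea cycle and ammonia genes passed 1.5-fold, and Cps1, the first enzyme of the cycle, read 18589.6 in the high-fat sample, against 18149.6 in the standard sample.

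Genes that mark zones of the liver lobule were counted next. Among 12 compared pericentral genes 4 were higher and 0 lower, with a median log2 difference of 0.20, and among 15 periportal genes 0 were higher and 2 lower, with a median of -0.23. The higher pericentral genes were Cyp7a1, Oat, Slc1a2 and Tbx3. Slc1a2, a glutamate carrier, read 699 in the high-fat sample, against 435 in the standard sample (1.61-fold higher), and it was higher in the FR30 pair too, at 1020.0 in the FR30 high-fat sample, against 371 in the FR30 standard sample. Tbx3, a transcription factor of the Wnt-active zone, read 284 in the high-fat sample, against 186 in the standard sample (1.53-fold higher), and after correction it was 2.92-fold higher. The lower periportal genes were Sds and Gldc. Of 13 pericentral genes in the FR30 pair 4 were higher and 0 lower, with a median of 0.32, and 0 of 15 periportal genes were higher and 2 lower, with a median of 0.18, above 0 where the control median lay below it. The lists share genes with the bile acid and amino acid lists, so their counts are not separate, and the difference between the lists was not tested.

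Several hormone-linked genes differed. In the growth hormone and STAT5 list of 16 genes, 4 were higher and 2 lower, beside 1.17% higher and 1.44% lower over all genes. Bcl6, a repressor that competes with STAT5, read 1696 in the high-fat sample, against 411 in the standard sample (4.13-fold higher). The FR30 pair had a like gap, 1134 in the FR30 high-fat sample, against 382 in the FR30 standard sample. The prolactin receptor Prlr read 809.9 in the high-fat sample, against 294 in the standard sample (2.75-fold higher, or 4.32-fold higher after correction), while in FR30 liver it read 542 in the FR30 high-fat sample, against 502 in the FR30 standard sample. Socs2, a feedback inhibitor that growth hormone induces, read 253 in the high-fat sample, against 661 in the standard sample (2.62-fold lower, or 4.55-fold lower after correction). It was lower in the FR30 pair as well, at 366 in the FR30 high-fat sample, against 1079 in the FR30 standard sample. The other members past the limit were Igfbp1, Igfbp2 and Onecut1. Igfbp1, an IGF-binding protein that insulin represses, read 2081 in the high-fat sample, against 779.7 in the standard sample (2.67-fold higher). Igfbp2, another IGF-binding protein, was not detected on standard diet and read 323 in the high-fat sample, against 158 in the standard sample (at least 1.96-fold higher). Onecut1, the hepatocyte factor HNF6, read 1801 in the high-fat sample, against 3562 in the standard sample (1.98-fold lower), and in FR30 liver 1605 in the FR30 high-fat sample, against 6013 in the FR30 standard sample.

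Among 13 glucocorticoid-responsive genes 5 were higher and 1 lower, and among 9 genes of the thyroid axis 2 were higher, Serpina7 and Thrsp, and 0 lower, beside 1.17% higher and 1.44% lower over all genes. Of the 13 glucocorticoid-responsive genes 1 was higher in the FR30 pair and 1 lower, with a median log2 difference of -0.03, and 1 of 9 thyroid genes was higher and 0 lower, with a median of -0.18. Mt1 (Mt1a in the file), a metallothionein that binds zinc and copper, read 53443 in the high-fat sample, against 11586 in the standard sample (4.61-fold higher). Its FR30 values lay between these, at 35761 in the FR30 high-fat sample, against 23957 in the FR30 standard sample. Tsc22d3, the glucocorticoid-induced leucine zipper, read 2056 in the high-fat sample, against 1306 in the standard sample (1.57-fold higher). Per1, a clock gene that glucocorticoids induce, read 506 in the high-fat sample, against 255 in the standard sample (1.99-fold higher, or 3.15-fold higher after correction), and Klf15, a regulator of amino acid breakdown, read 3746 in the high-fat sample, against 2398 in the standard sample (1.56-fold higher). The fifth was Serpina6, and the lower one was Sgk1 (Sgk in the file), a kinase, at 2681 in the high-fat sample, against 4971 in the standard sample (1.85-fold lower). Plasma carriers of both hormones were higher. Serpina7, the thyroxine-binding globulin, read 2192 in the high-fat sample, against 609.8 in the standard sample (3.595-fold higher). In FR30 liver it read 1783 in the FR30 high-fat sample, against 729 in the FR30 standard sample. Serpina6, the corticosteroid-binding globulin, read 13857 in the high-fat sample, against 9077 in the standard sample (1.53-fold higher), whereas in FR30 liver it read 10214 in the FR30 high-fat sample, against 11049.6 in the FR30 standard sample.

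The promoter of Mt1 is printed because metallothionein genes are known for clustered metal response elements, with the core letters TGCACNC or TGCGCNC, which the zinc-sensing factor MTF-1 reads. Its window lies at chr19:10832926-10833225 of GRCr8 on the minus strand, 5′ to 3′, with matches on either strand in capitals.
Mt1: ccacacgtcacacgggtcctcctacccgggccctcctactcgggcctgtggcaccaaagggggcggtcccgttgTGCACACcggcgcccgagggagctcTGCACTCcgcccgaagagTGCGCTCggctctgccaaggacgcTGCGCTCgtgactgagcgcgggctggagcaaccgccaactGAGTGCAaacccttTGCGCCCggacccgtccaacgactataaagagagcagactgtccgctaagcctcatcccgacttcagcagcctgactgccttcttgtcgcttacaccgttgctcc
The window held 6 matches, 0 of them overlapping. Of 33469 promoters 24.2% held at least 1, and 13 promoters, or 0.0388%, held 6 or more. The metallothionein, zinc and copper list had 14 compared genes, of which Mt1 was higher and the zinc importer Slc39a4 lower, at 513 in the high-fat sample, against 846 in the standard sample (1.65-fold lower).

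Oxidative stress genes were led by Hmox1. Hmox1, the inducible enzyme of heme breakdown, read 5520.3 (STDEV 74.1) in the high-fat sample, against 588 (STDEV 7.83) in the standard sample. It was 9.39-fold higher, the widest gap of the higher genes on the deposited scale. The FR30 samples read 761 on high-fat and 684.8 on standard diet, so the control high-fat sample stood alone. Of 18 compared NRF2 targets, 14 lay above 0, 5 were higher by at least 1.5-fold and 0 were lower. Their median log2 difference was 0.39. Nqo1, a quinone reductase, read 3236 in the high-fat sample, against 1736 in the standard sample (1.86-fold higher). Akr7a3, an aflatoxin aldehyde reductase, read 2139 in the high-fat sample, against 1006 in the standard sample (2.13-fold higher). Aldh1a1, which oxidises retinal and other aldehydes, read 15053 in the high-fat sample, against 8075 in the standard sample (1.86-fold higher). The fifth was the glutathione transferase Gsta3 (Yc2 in the file), at 328 in the high-fat sample, against 213 in the standard sample (1.54-fold higher, or 2.53-fold higher after correction). In the FR30 pair Nqo1, Akr7a3, Aldh1a1 and Gsta3 were also at least 1.5-fold higher. General antioxidant enzymes gave no such picture, with 0 of 17 past the limit and a median of -0.02, and of 14 heme genes Hmox1 alone passed it.

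Protein folding genes showed small differences. Of 22 genes of the endoplasmic reticulum stress response 1 passed 1.5-fold, Herpud1, which acts in disposal of misfolded proteins, at 4802 in the high-fat sample, against 2698 in the standard sample (1.78-fold higher). The chaperone Hspa5 read 18936 in the high-fat sample, against 17385 in the standard sample. None of 17 heat shock genes passed it. Of 5 gene models described as similar to the constitutive chaperone HSPA8, chosen after their values were seen, 3 were higher, and the median log2 difference was 0.60 in the control pair and -0.36 in the FR30 pair.

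Immediate early, growth arrest and clock genes went in both directions. Among 20 immediate early and growth arrest genes 2 were higher and 5 lower. Egr1, an immediate early transcription factor, read 961 in the high-fat sample, against 358 in the standard sample (2.68-fold higher), and it was higher than in both FR30 samples. Klf6, another early factor, read 550.1 in the high-fat sample, against 361 in the standard sample (1.52-fold higher). The stress protein gene Gadd45g read 449.5 in the high-fat sample, against 1617 in the standard sample (3.596-fold lower), with the control standard sample far above the FR30 values of 582 on high-fat and 489 on standard diet. Its relative Gadd45a read 860.4 in the high-fat sample, against 1473 in the standard sample (1.71-fold lower). Dusp1, a phosphatase that switches off MAP kinases, read 4382 in the high-fat sample, against 10381 in the standard sample (2.37-fold lower). Btg2, which slows proliferation, read 878 in the high-fat sample, against 1728 in the standard sample (1.97-fold lower), and Jun, an AP-1 subunit, read 302 in the high-fat sample, against 487 in the standard sample (1.61-fold lower).

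The clock list had 2 of 12 genes higher and 2 lower. Per1 was given above, and Nr1d1, the repressor REV-ERB alpha, was detected only on high-fat diet, at 272 in the high-fat sample, against 179.5 in the standard sample (at least 1.52-fold higher). Bhlhe40 (Bhlhb2 in the file), a repressor of clock genes, read 459.6 in the high-fat sample, against 1124 in the standard sample (2.45-fold lower), and Cry1, a clock repressor, read 775 in the high-fat sample, against 1299.9 in the standard sample (1.68-fold lower). Per2 read 1699.8 in the high-fat sample, against 1824 in the standard sample. No source used here gives the hour at which livers were taken. Ccnd1, the G1 cyclin, read 1641 in the high-fat sample, against 2865 in the standard sample (1.75-fold lower) and was lower in the FR30 pair, at 1139 in the FR30 high-fat sample, against 3081 in the FR30 standard sample.

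Drug and steroid metabolism was mixed. Of 42 cytochrome P450 genes 2 were higher, Cyp7a1 and Cyp8b1, and 2 lower. Cyp17a1, which acts in steroid synthesis, read 368 in the high-fat sample, against 801 in the standard sample (2.18-fold lower), and Cyp2d4 (Cyp2d22 in the file) read 367 in the high-fat sample, against 644 in the standard sample (1.75-fold lower). Cyp3a2, a steroid and drug hydroxylase, read 47776 in the high-fat sample, against 44254 in the standard sample. The aryl hydrocarbon receptor Ahr, a sensor of foreign compounds, read 1472 in the high-fat sample, against 772 in the standard sample (1.91-fold higher), and it was higher in the FR30 pair as well, at 1506 in the FR30 high-fat sample, against 508 in the FR30 standard sample. Among 35 aldehyde, alcohol, aldo-keto and steroid dehydrogenases 4 were higher and 0 lower. They were Aldh1a1, Akr7a3, Adh6 and Aldh1a7. Adh6, an alcohol dehydrogenase, read 1306 in the high-fat sample, against 540.3 in the standard sample (2.42-fold higher). Aldh1a7, an aldehyde dehydrogenase that phenobarbital induces in rats, read 758 in the high-fat sample, against 255 in the standard sample (2.98-fold higher, or 5.29-fold higher after correction), while the FR30 pair had a wider gap, 1872 in the FR30 high-fat sample, against 211 in the FR30 standard sample.

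Conjugating enzymes differed in both directions. Of 16 glucuronosyl- and sulfotransferases 2 were higher and 2 lower. Sult1c2, a sulfotransferase, read 5491 in the high-fat sample, against 3052 in the standard sample (1.799-fold higher), and Sult2a6 (Smp2a in the file), a hydroxysteroid sulfotransferase, read 5636 in the high-fat sample, against 3720.1 in the standard sample (1.51-fold higher). Ugt2b17, which glucuronidates steroids, read 1789.6 in the high-fat sample, against 5367 in the standard sample (2.999-fold lower), and Ugt2a3 read 663 in the high-fat sample, against 1535 in the standard sample (2.32-fold lower). Both were higher in the FR30 pair, Ugt2b17 at 3201 in the FR30 high-fat sample, against 1583 in the FR30 standard sample, and Ugt2a3 at 1076 in the FR30 high-fat sample, against 555 in the FR30 standard sample. Of 18 glutathione transferases Gsta3 alone passed the limit. Of 21 retinoid genes 0 were higher and 2 lower, both with opposite values in FR30 liver. Rdh16 (Rdh2 in the file), a retinol dehydrogenase, read 501 in the high-fat sample, against 1588 in the standard sample (3.17-fold lower), and in FR30 liver 1054 in the FR30 high-fat sample, against 719 in the FR30 standard sample. Dhrs7, a short-chain dehydrogenase, read 4932 in the high-fat sample, against 11668 in the standard sample (2.37-fold lower), and in FR30 liver 7346 in the FR30 high-fat sample, against 5202 in the FR30 standard sample.

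Few secreted and immune genes passed the limit. Among 20 acute phase genes 2 were lower, Orm1, the alpha-1-acid glycoprotein, at 7917 in the high-fat sample, against 16382 in the standard sample (2.07-fold lower), and Crp, the C-reactive protein, at 10139.6 in the high-fat sample, against 15407 in the standard sample (1.52-fold lower). Hamp, the iron hormone hepcidin, read 32414 in the high-fat sample, against 48686 in the standard sample (1.502-fold lower), which was 1.47-fold lower after correction and so below the limit. None of 21 coagulation or 26 complement genes passed 1.5-fold. Of 27 interferon response genes 1 was lower, the GTPase Igtp, at 802 in the high-fat sample, against 1282 in the standard sample (1.597-fold lower). After correction 1 gene of that list was higher and 5 were lower. Of 32 chemokines, cytokines and receptors 1 was higher, the B cell chemokine Cxcl13, at 391 in the high-fat sample, against 200.3 in the standard sample (1.95-fold higher, or 3.99-fold higher after correction).

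The rat MHC class I genes RT1-A1 and RT1-A2 went in opposite directions. RT1-A2 read 628 in the high-fat sample, against 4355 in the standard sample (6.94-fold lower), with FR30 values of 3787 on high-fat and 4705 on standard diet. RT1-A1 read 5228 in the high-fat sample, against 3313 in the standard sample (1.58-fold higher), and in FR30 liver 2716 in the FR30 high-fat sample, against 3702 in the FR30 standard sample. In the list of 26 compared genes of MHC and antigen processing no other member passed 1.5-fold. A further rat MHC gene outside that list, RT1-M6-2, read 508 in the high-fat sample, against 1016 in the standard sample (2.002-fold lower), and 804 in the FR30 high-fat sample, against 1052 in the FR30 standard sample.

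Markers of other liver cells differed little. None of 8 Kupffer cell, 7 lymphocyte, 7 endothelial, 12 stellate and matrix or 6 cholangiocyte markers passed 1.5-fold, and their summed signals differed little. The Kupffer markers summed to 4498 in the high-fat and 4298 in the standard sample. Of 4 neutrophil and mast cell markers 1 was higher, Hdc, the histamine-forming enzyme, at 748 in the high-fat sample, against 329 in the standard sample (2.28-fold higher), and 1 lower, the mast cell protease Cma1, at 159.9 in the high-fat sample, against 320.1 in the standard sample (at least 1.91-fold lower). Erythroid markers were the exception, with 2 of 7 higher and a summed signal of 69848 in the high-fat and 49643 in the standard sample. Beta globin, Hbb, read 17564 in the high-fat sample, against 10568 in the standard sample (1.66-fold higher), and Ahsp (Eraf in the file), the alpha globin chaperone, read 340.3 in the high-fat sample, against 214 in the standard sample (1.59-fold higher, or 2.66-fold higher after correction). Beta globin was also higher in the FR30 pair, at 18345 in the FR30 high-fat sample, against 10912 in the FR30 standard sample, and the part of blood in other differences was not tested. Adipocyte, skeletal muscle and pancreas markers had 6, 3 and 2 compared genes and 0 past the limit. After correction 2 of the 6 adipocyte markers (Cfd and Cidea), 2 of the 6 cholangiocyte markers and 4 of the 7 erythroid markers were higher. Skeletal muscle markers summed to 1856 in the FR30 high-fat sample, against 2778 in the FR30 standard sample.

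**Figure D3:**
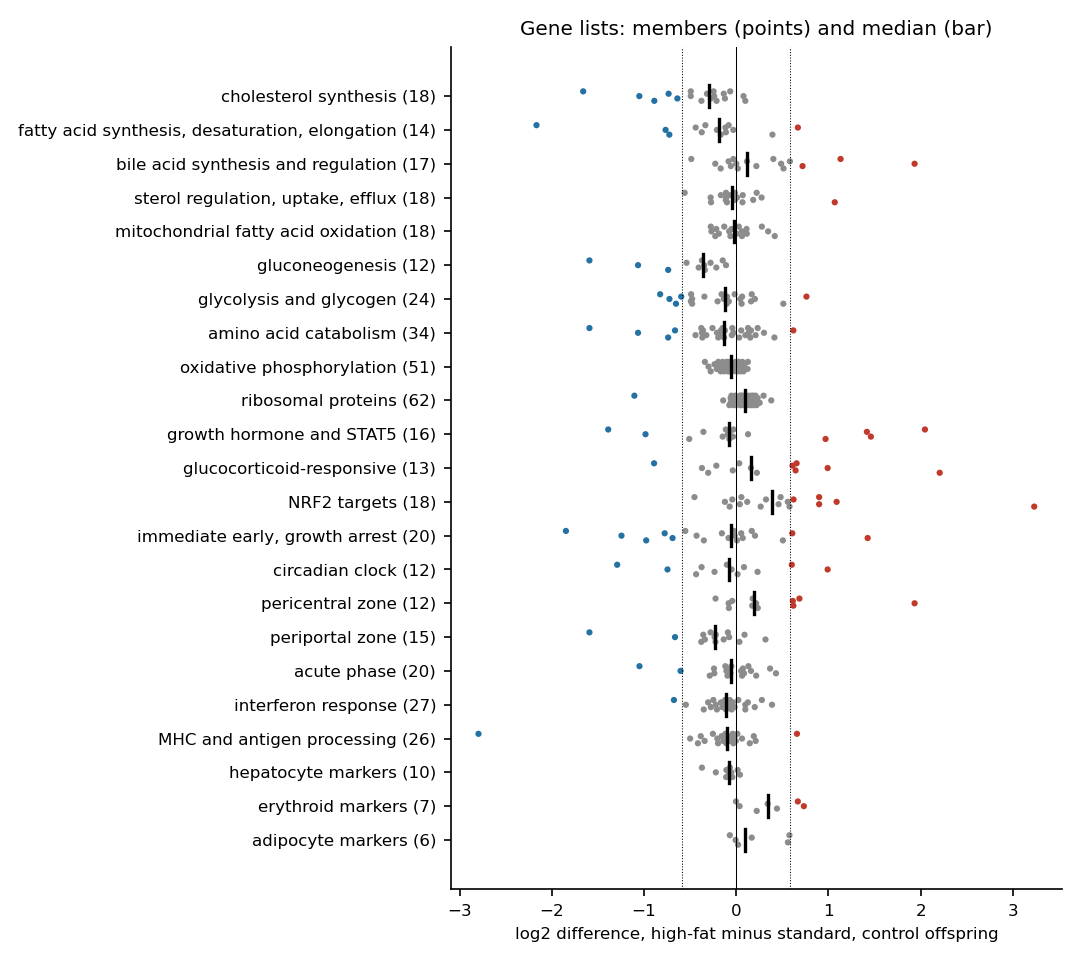
Log2 difference of high-fat minus standard control liver (horizontal axis) for each gene of selected lists, 1 list per line with its number of genes, a bar at the median of each list, and dotted lines at 1.5-fold. Cholesterol synthesis (median -0.30) and gluconeogenesis (median -0.36) lie left of 0, NRF2 targets (median 0.39) lie right of it, and the lists of mitochondrial genes centre near 0.

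Lists of core cellular machinery held almost no gene past the limit. None of 51 respiratory chain and ATP synthase genes, 18 citric acid cycle genes, 33 proteasome genes or 35 chromatin genes passed 1.5-fold, and their medians lay between -0.09 and 0.03. Of 62 ribosomal protein genes 49 lay above 0, with a median of 0.09, and 1 passed the limit. That was Rps9, at 1679 in the high-fat sample, against 3609.7 in the standard sample (2.15-fold lower), which was reversed in the FR30 pair, at 3619 in the FR30 high-fat sample, against 1482 in the FR30 standard sample. A second model described as ribosomal protein S9, RGD1564649, had the same form in the control pair, 462 in the high-fat sample, against 3019 in the standard sample. In the FR30 pair it read 2775 in the FR30 high-fat sample, against 526 in the FR30 standard sample.

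Other genes with wide gaps had varied roles. Rtn4, a protein that shapes the endoplasmic reticulum, read 5597 in the high-fat sample, against 1538 in the standard sample (3.64-fold higher). Popdc2, a membrane protein that binds cyclic AMP, read 792 in the high-fat sample, against 250.2 in the standard sample (3.17-fold higher, or 5.84-fold higher after correction). Prr15 (a model identifier in the file), a proline-rich protein, was detected only on high-fat diet, at 558 in the high-fat sample, against 177 in the standard sample (at least 3.16-fold higher). Each was higher in both high-fat samples than in both standard samples. Zfp354a, a zinc finger repressor, read 1171 in the high-fat sample, against 448 in the standard sample (2.62-fold higher). At the low end Dact1 (a model identifier in the file), a regulator of Wnt signalling, read 196 in the high-fat sample, against 476 in the standard sample (2.44-fold lower, or 5.79-fold lower after correction), and its FR30 values were 212 in the FR30 high-fat sample, against 412 in the FR30 standard sample. Foxa3, a liver transcription factor, read 973 in the high-fat sample, against 1831 in the standard sample (1.88-fold lower). Among carriers, the thyroid hormone and aromatic amino acid carrier Slc16a10 read 806 in the high-fat sample, against 504 in the standard sample (1.599-fold higher), and the GABA and taurine carrier Slc6a13 read 1636 in the high-fat sample, against 2609.6 in the standard sample (1.59-fold lower). Of 21 mitochondrial carriers 0 were higher and 2 lower, Slc25a25 and Slc25a30. Slc25a25, which moves ATP-magnesium, read 4504 in the high-fat sample, against 7619 in the standard sample (1.69-fold lower). Slc25a30 read 238 in the high-fat sample, against 437 in the standard sample (1.84-fold lower as measured). It was close to the detection limit, with a detection p-value of 0.046 in the standard sample, and was not detected in the high-fat sample (0.122). Ctsl, the lysosomal protease cathepsin L, read 26079 in the high-fat sample, against 17297 in the standard sample (1.51-fold higher), which was 1.45-fold higher after correction and so under the limit.

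The same diets in FR30 liver were set beside these values in samples that the comparison did not use. In that pair 164 of 9541 genes were at least 1.5-fold higher (1.72% of genes) and 136 lower (1.43%), together 3.14%. Of the 111 genes higher in the control pair, 94 had the same sign in the FR30 pair and 53 were at least 1.5-fold higher there, which is 47.7% of the control list and 32.3% of the FR30 list. Of the 136 lower genes, 134 had a value in the FR30 pair, 104 had the same sign and 39 were at least 1.5-fold lower, which is 28.7% of each list. The counts of genes past 1.5-fold the opposite way were 2 and 7. Both high-fat samples lay above both standard samples for 93 of the 111 higher genes, and below both for 103 of the 136 lower genes. The order of the control samples in these genes was set by how the genes were chosen. The shares of all genes with the same sign in both pairs, or with these arrangements, were not counted. The 136 lower genes include 16 genes or models described as GAPDH and 4 as MIF, of which 0 passed 1.5-fold in the FR30 pair. The 111 higher genes include 3 described as HSPA8 and 4 as SULT1C2. Such rows may measure the same RNA, so the shares may count 1 gene product more than once.

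Some differences rested on 1 of the 4 samples. Among higher genes the control high-fat sample was at least 1.5-fold above all others for 8, Hmox1, Rtn4 and Egr1 among them, and the control standard sample was at least 1.5-fold below all others for 11, Cd36, Prlr and Abcg5 among them. Among lower genes the control high-fat sample stood alone at the bottom for 9, such as Fdft1 and Orm1, and the control standard sample alone at the top for 15, such as Gadd45g and Ugt2b17. Which animal or preparation differed cannot be told from 1 sample per group.

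**Figure D4:**
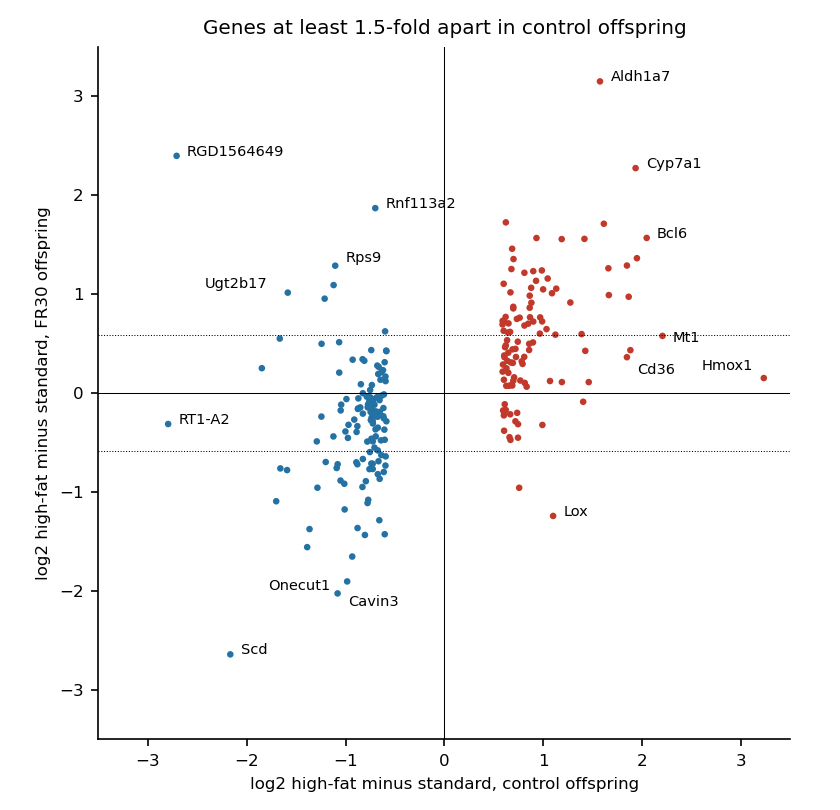
Log2 difference of high-fat minus standard in control liver (horizontal axis) against the same difference in FR30 liver (vertical axis), 1 point for each gene at least 1.5-fold apart in control liver that has a value in FR30 liver. Dotted lines mark 1.5-fold in FR30 liver. Cyp7a1 (1.93 and 2.28) and Scd (-2.17 and -2.64) lie far out in both pairs, whereas Hmox1 (3.23 and 0.15) lies far out in the control pair only.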

How the data were processed

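RNA of 4 rat liver samples was measured on Illumina BeadArrays, and 2 of these samples form the comparison. Per the labels' protocols, Trizol gave total RNA, an RNeasy kit with DNase cleaned it, and a TargetAmp kit turned it into cRNA carrying biotin. Per the submitters' processing notes GenomeStudio was used, in a version that the sources used here do not state. The authors deposited a normalized intensity per row of the table, its STDEV as an intensity, and a detection p-value, per the file headers, and the normalization method is not stated. The series matrix held the same deposited intensity values. A table of non-normalized values holds 4 columns that were not used, because its values did not match by identifier.

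The value is log2 of the high-fat signal minus log2 of the standard signal, as deposited. It was computed with pandas 2.3.3 and numpy 2.4.6 under Python 3.11.15, and figures were drawn with matplotlib 3.10.9. A gene with several rows was read from its brightest row on average, which turned 21791 rows into 21479 genes. Detection took a p-value under 0.05. Where only 1 sample of the pair detected a gene, the ratio is a lower bound, written as at least, in which the undetected signal was raised to the lowest detected one of its sample if it lay below it. An undetected signal above that level was kept as measured. For 13 genes no usable bound could be had. Genes were counted at 1.5-fold. With 1 sample per group no test was made, and the number of measurements behind a STDEV, and so the precision of a value, is unknown. Correction means normal-exponential background correction, fitted from the detection p-values with an offset of 16, followed by quantile normalization, after neqc of limma 3.58.1 in R 4.3.3, and the effects of these steps were not separated. The calculation was checked on simulated data. RefSeq tables of GRCr8 gave current names and the promoters. Of 21791 rows, 9918 already held a current symbol and 4820 were matched by synonym, while 6936 stayed under the file's name and 117 were unnamed.

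The members and the 75 gene lists were chosen with earlier results of these data known, and the promoters, letters searched and families of like models after their values were seen. The genes named are the 15 largest differences and 8 largest bounds each way, up to 8 list members past 1.5-fold with the 3 of highest signal, and a fixed set. Mif, RT1-M6-2, Fabp4, the genes at the limits and the genes of the closing observations were added after their values were seen. Fasn and Igf1 were not analysed here, and some further genes from these lists are left out. The alternatives were this correction, centring, a stricter detection limit, detection on both samples, the mean of rows, a signal minimum of 300, a distance of 2 STDEV, and 2-fold.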

Additional observations from a re-analysis of the deposited data

Results flagged for a closer look

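For 9 genes the high-fat minus standard difference was at least 1.5-fold in both pairs but in opposite directions. With 1 sample per group the difference between the pairs was not tested, and no cause was examined. The values below are log2 differences, high-fat minus standard, with the control pair given first.

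Ribosomal protein S9 was one case, measured by 2 rows. Rps9 stood at -1.10 in control liver and 1.29 in FR30 liver, and the model RGD1564649 at -2.71 and 2.40. For both rows the control standard and FR30 high-fat samples were high and the other 2 samples low. The steroid-conjugating genes Ugt2b17, at -1.58 and 1.02, and Ugt2a3, at -1.21 and 0.95, had the same arrangement.

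Lox, the enzyme that cross-links collagen, went the other way, at 1.10 in control liver and -1.24 in FR30 liver. It read 5496 in the high-fat sample, against 2565 in the standard sample. In the FR30 pair it read 1789 in the FR30 high-fat sample, against 4235 in the FR30 standard sample. The model LOC691966 had a like pattern, at 0.76 and -0.96. The olfactory receptor Olr59 stood at -0.60 and 0.62, and Rnf113a2, a ring finger gene, at -0.70 and 1.87. The model LOC499823 stood at -1.12 and 1.09, and its level separated the prenatal groups more than the diets: in FR30 liver it read 7726 on high-fat and 3625 on standard diet, against 319 on high-fat and 694 on standard diet in control liver.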

How the results depend on the processing

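No paired analysis was possible because each group holds 1 sample, and no replicate could be left out. Background correction together with quantile normalization moved the counts past 1.5-fold to 248 higher and 322 lower genes, and requiring 2-fold moved them to 28 and 31. The counts of genes at least 1.5-fold the same way in the FR30 pair became 104 and 85 with both steps, against 53 and 39 as deposited. The other settings kept both counts within 1.5 times: 108 and 138 with each sample centred on its median, 102 and 130 for genes detected on both samples, 109 and 133 at a detection p-value under 0.01, 109 and 135 with the mean of a gene's rows, 111 and 136 at a distance of 2 STDEV, and 108 and 134 at a signal of at least 300. Chosen after seeing the data, leaving out genes named by a model identifier left 97 higher and 99 lower, and leaving out genes with a STDEV over 20% in the FR30 standard sample left 51 and 38 shared with the FR30 pair. Background correction together with quantile normalization moved the medians of 11 of 74 lists and the values of 112 of 306 named genes, and no result of these changed its sign while past the limit. Centring moved none of these, while keeping only genes 2 STDEV apart moved the medians of 62 of 69 lists. Low signals limit what can be seen, since 0.468% of genes under a mean signal of 300 passed 1.5-fold as deposited. By their deposited p-values, 44 genes with signals over 400 on both samples counted as not detected and were not compared.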

Other observations

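Several genes past 1.5-fold lay outside every list and were picked for mention after their values were seen. Among higher genes, Alox15, an arachidonate lipoxygenase, read 478 in the high-fat sample, against 232 in the standard sample (2.06-fold higher, or 3.61-fold higher after background correction and quantile normalization). In FR30 liver it read 517 in the FR30 high-fat sample, against 232 in the FR30 standard sample. Pla2g12a, a secreted phospholipase, read 5643 in the high-fat sample, against 2758 in the standard sample (2.05-fold higher), and the FR30 difference was 0.65 on the log2 scale. Fmo1, a flavin monooxygenase of drug metabolism, read 6318 in the high-fat sample, against 3324 in the standard sample (1.901-fold higher), and was higher in the FR30 pair too, at 6609 in the FR30 high-fat sample, against 3009 in the FR30 standard sample. Gjb2, the gap junction protein connexin 26, read 5656 in the high-fat sample, against 3728 in the standard sample (1.52-fold higher), with an FR30 difference of -0.23.

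Among lower genes, the caveolar protein Cavin3 (Prkcdbp in the file) read 746 in the high-fat sample, against 1578 in the standard sample (2.11-fold lower), and the FR30 gap was wider, 434 in the FR30 high-fat sample, against 1768 in the FR30 standard sample. Hhex, a homeobox factor of liver development, read 6123 in the high-fat sample, against 9767 in the standard sample (1.595-fold lower), and in FR30 liver 6452 in the FR30 high-fat sample, against 11396 in the FR30 standard sample. Rcan1, an inhibitor of calcineurin, read 3057 in the high-fat sample, against 4825 in the standard sample (1.58-fold lower), and in FR30 liver 3013 in the FR30 high-fat sample, against 7349 in the FR30 standard sample. Slpi, a secreted protease inhibitor, read 1026 in the high-fat sample, against 1877 in the standard sample (1.83-fold lower), and the FR30 samples, at 938 on high-fat and 1045 on standard diet, were near the control high-fat value. None of these values has a replicate.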
